A study of Homo sapiens with 6 samples.

Results

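The 10 genes described here encode mucins, MUC1, MUC2, MUC3A, MUC4, MUC5AC, MUC5B, MUC12, MUC13, MUC16 and MUC20. They are 10 of 20824 genes listed in the deposited files, and they were chosen as a gene family with results of this same comparison known, so their differences between the groups are a description and carry no test. A549 cells, a human lung adenocarcinoma line, carried either a scrambled control shRNA (the scramble group, labelled as the wild type control) or an shRNA against C19orf12 (the knockdown group), with 3 libraries of polyadenylated RNA in each. The labels do not say whether the libraries of a group came from separate cultures, so all errors and p-values refer to spread among libraries alone. The comparison asked how expression differs when C19orf12, a gene of a mitochondrial and endoplasmic reticulum membrane protein, is lowered.

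Mucins are large glycoproteins whose repeated stretches of serine and threonine carry dense O-linked sugar chains. Secreted gel-forming mucins, such as MUC5AC and MUC5B in the airway, are packed into granules and expand into mucus on release. Membrane mucins, such as MUC1, MUC4, MUC13 and MUC16, are anchored in the apical cell surface, form part of the layer that covers epithelial cells, and can shed their outer part.

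The library totals lay between 10229890 and 10647587 expected counts, which are RSEM's estimates of reads per gene. Levels are given as CPM, which put all libraries on 1 total by means of TMM factors and are listed in the order of the replicate numbers, and 3 counts, the limit that a count of 0 allows, equal 0.278 to 0.3 CPM. C19orf12 itself held 42.5, 41.1 and 63.3 CPM in the 3 scramble libraries, against 24.2, 26.4 and 25.2 CPM in the 3 knockdown libraries. The knockdown mean was 51.6% of the scramble mean, or 60.4% without scramble replicate 3. This difference passed with all 6 libraries (adjusted p = 0.015 by edgeR). It did not when any 1 knockdown library was left out (0.0755 to 0.0908). Scramble replicate 3 differed from the rest: with genes split into 10 equal bins by GC content, its log2 CPM in the lowest bin (37.9% GC) was at the median 1.00 below the mean of scramble replicates 1 and 2, and 0.49 above it in the highest bin (64.3% GC). Each fitted mucin is therefore given with and without that library. Of 7 listed markers of alveolar type 2 cells, 3 were tested with all 6 libraries. The defining SFTPC and SFTPA1 were at or near 0. ABCA3 fell from 120 ± 23.4 to 66.5 ± 1.1 CPM and LAMP3 from 6.65 ± 0.309 to 2.33 ± 0.0493 CPM (adjusted p = 0.0127 and 0.0013 by edgeR). SFTPB did not pass and lay the other way, at 2.65 against 3.06 CPM (log2 fold change 0.21, and 0.48 without scramble replicate 3). The low SFTPD and NAPSA, not tested with all 6 libraries, went from 0.658 to 0.366 and from 0.939 to 0.697 CPM. The summed level was 115 to 158 CPM in the scramble libraries and 71.5 to 74.7 CPM in the knockdown libraries, most of it ABCA3. The summed level of 6 epithelial markers ran from 4894 to 7206 CPM in the scramble libraries and from 12200 to 12350 CPM in the knockdown libraries. KRT8 (1331 ± 309 to 4615 ± 49.4 CPM) and KRT18 (2222 ± 527 to 5504 ± 81.6 CPM) carried most of that rise, KRT19 rose at a low level (0.192 to 2.26 CPM), and KRT7 (log2 fold change -0.0025), CDH1 (0.30) and EPCAM (1.06) did not pass with all 6 libraries. Without scramble replicate 3, where 49.5% of all genes were called, KRT7, CDH1 and EPCAM passed at 0.21, 0.38 and 0.85 (adjusted p = 1.8e-06, 1.6e-06 and 0.0398 by edgeR). The part of either marker list in the mucin values was not tested. In bulk RNA, a larger share of cells with a mucin and more mucin RNA per cell cannot be told apart.

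MUC16, MUC13, MUC5B and MUC1 were higher in every knockdown library than in every scramble library, and MUC5AC was lower in every one. MUC16, a very long membrane mucin whose shed part is the tumour marker CA125, had the widest difference, 25.1-fold between the group means. Of the 10 genes, 8 had counts enough to be fitted by edgeR across 14812 genes, and of these 4 were called higher (MUC1, MUC5B, MUC13 and MUC16) at an adjusted p under 0.05. Over all genes 11.5% were called, 5.89% higher and 5.64% lower. None of the 8 was called lower by edgeR, DESeq2 or limma-voom, and 1 of them, MUC5AC, was lower at an unadjusted p under 0.05. The groups did not overlap for 5 of the 8, where 37% of all tested genes did not overlap, and the median log2 fold change of the 8 was 0.87, against 0.02 over all genes. Without scramble replicate 3, 9 of the 10 could be fitted, and 4 were called higher and 1, MUC5AC, lower, where 49.5% of all genes were called, 25.7% higher and 23.8% lower. Nothing is read from these counts, since the genes were selected on this comparison.

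**Figure D1:**
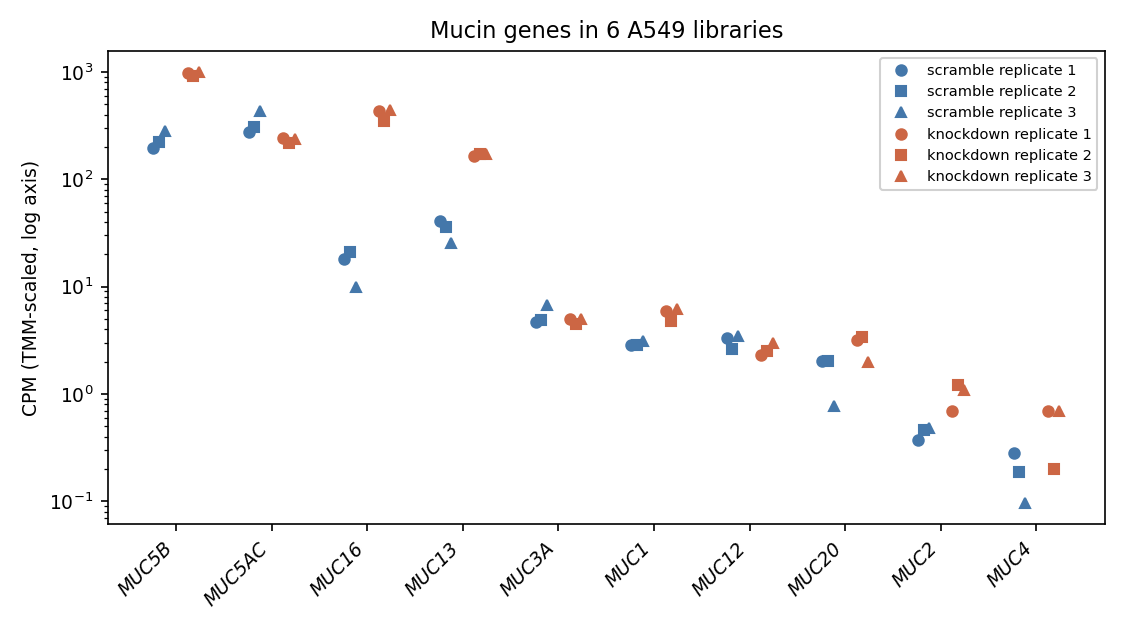
Level of each of the 10 mucins in each of the 6 libraries, in CPM on a log10 axis, with 1 point for each library, coloured by group and shaped by replicate number. The knockdown points of MUC16, MUC13, MUC5B and MUC1 lie above all scramble points, those of MUC5AC below, and levels of different genes are not to be compared on this axis, since CPM is not scaled by length.

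MUC16 (Entrez gene 94025, chromosome 19) measured 18, 20.9 and 9.97 CPM in the 3 scramble libraries, against 433, 347 and 444 CPM in the 3 knockdown libraries. These levels rest on 194, 225 and 103 counts against 4328, 3479 and 4475. The lowest knockdown library stood 16.6-fold above the highest scramble library. The group means were 16.3 ± 5.66 and 408 ± 53.0 CPM (SD, n = 3 each), a log2 fold change of 4.64 (SE 0.29). Scramble replicate 3 was the lowest of the 6 libraries, at 0.93 below the mean of the other scramble replicates on the log2 scale. The median gene in the GC bin of MUC16 (50.3% GC) lay 0.31 above that mean in this library, on the opposite side to MUC16. Without scramble replicate 3 the fold was 21.0 and the log2 fold change 4.39. MUC16 went from 0.377 ± 0.140 to 8.97 ± 1.18 FPKM, values scaled by depth and transcript length, and among the 10 mucins it moved from the seventh to the fourth place on that scale. The seventh place, just below MUC3A, rests on scramble replicate 3, with 0.22 FPKM for MUC16 against 0.56 for MUC3A. In scramble replicates 1 and 2, MUC16 held 0.42 and 0.49 FPKM and MUC3A 0.42 and 0.45.

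MUC13 (Entrez gene 56667, chromosome 3) encodes a membrane mucin of the digestive and respiratory epithelium. Its levels were 41.1, 35.9 and 25.7 CPM in the 3 scramble libraries, against 164, 172 and 170 CPM in the 3 knockdown libraries. The 3 knockdown libraries lay close together and far from the scramble libraries. The means were 34.2 ± 7.84 and 169 ± 3.90 CPM (SD, n = 3 each), 4.93-fold apart (log2 fold change 2.30, SE 0.20). Scramble replicate 3 was the lowest library here too, by 0.58 on the log2 scale, beside a median shift of -0.25 for genes in the GC bin of MUC13 (44.7% GC), and the log2 fold change without it was 2.13.

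MUC1 (Entrez gene 4582, chromosome 1), the membrane mucin best known from breast and pancreatic tumours, was low. It measured 2.88, 2.88 and 3.10 CPM in the 3 scramble libraries, against 5.90, 4.79 and 6.16 CPM in the 3 knockdown libraries, from 31, 31 and 32 counts against 59, 48 and 62. The groups were apart by little: the lowest knockdown library was 1.55-fold above the highest scramble library. The means of 2.95 ± 0.127 and 5.62 ± 0.726 CPM (SD, n = 3 each) give a log2 fold change of 0.93 (SE 0.21), and 0.96 without scramble replicate 3. Among the 16 settings tried, MUC1 was the one of the 4 whose call was lost in any, without scramble replicate 1, scramble replicate 2, knockdown replicate 1 or knockdown replicate 3, and with a minimum log2 fold change of 1.

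The promoters of MUC13 and MUC1, both higher in the knockdown libraries, are shown because of their starts and because their composition differs. Each start is that of the longest GENCODE transcript matched by RefSeq accession to the deposited files. Both are the 250 bases before the start in RefSeq (GRCh38.p14), 5′ to 3′ on the strand of the gene, with matches to the searched motifs in capitals. For MUC1 the reference holds 2 starts, only the first is shown, and other isoforms were not compared. The searched motifs were the TATA box TATAAA, the CCAAT box CCAAT, the GC box GGGCGG, the AP-1 site TGANTCA, the cyclic AMP element TGACGTCA, the forkhead site TNTTTAC, the HNF1 half-site GTTAAT, the ETS site AGGAAG and the KLF site CCACCC, on both strands.
MUC13, chr3:124934752-124935001, minus strand: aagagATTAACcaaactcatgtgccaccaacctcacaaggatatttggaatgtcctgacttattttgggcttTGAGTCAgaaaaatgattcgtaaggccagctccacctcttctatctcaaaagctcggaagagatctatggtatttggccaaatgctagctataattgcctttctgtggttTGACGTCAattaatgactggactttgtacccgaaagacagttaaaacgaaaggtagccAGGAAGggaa
MUC1, chr1:155192916-155193165, minus strand: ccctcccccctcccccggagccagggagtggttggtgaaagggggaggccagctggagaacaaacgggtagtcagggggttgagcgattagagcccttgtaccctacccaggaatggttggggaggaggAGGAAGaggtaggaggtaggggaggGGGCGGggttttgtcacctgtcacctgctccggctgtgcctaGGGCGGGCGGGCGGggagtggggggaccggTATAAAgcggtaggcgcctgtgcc
The MUC13 window had a GC content of 41.6% and held an AP-1 match at positions -178 to -172 before the start (6.6% of 27305 promoters of this length hold one), a cyclic AMP element at -68 to -61 (1.77%), an HNF1 half-site on the reverse strand at -245 to -240 (6.22%) and an ETS site at -10 to -5 (28.7%). The MUC1 window had a GC content of 66% and held a TATA box at -24 to -19 (11.1%), 4 GC boxes, 3 of which overlap (42.3%), and an ETS site at -121 to -116 (28.7%). Of the motifs searched, the ETS site was the one found in both windows. Promoters were matched for 7 of the 10 mucins, not MUC5AC, MUC5B and MUC20. The MUC16 window is not shown, since its start in the reference lies 84409 bases from that of the matched transcript.

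MUC5B (Entrez gene 727897, chromosome 11), a gel-forming mucin made by the glands and surface cells of the airway, and MUC5AC (Entrez gene 4586, chromosome 11), a gel-forming mucin of goblet cells, are neighbours on chromosome 11 and differed between the groups in opposite directions. MUC5B measured 194, 223 and 284 CPM in the 3 scramble libraries, against 977, 921 and 993 CPM in the 3 knockdown libraries. MUC5AC measured 276, 304 and 435 CPM in the 3 scramble libraries, against 243, 216 and 239 CPM in the 3 knockdown libraries. MUC5B therefore was higher in all knockdown libraries, and MUC5AC lower in all of them than in any scramble library. The MUC5B means were 234 ± 45.8 and 964 ± 37.6 CPM (SD, n = 3 each), 4.12-fold apart (log2 fold change 2.04, SE 0.17), and without scramble replicate 3 the log2 fold change was 2.21. Those of MUC5AC were 338 ± 85.4 and 233 ± 14.6 CPM (SD, n = 3 each), with the knockdown mean at 0.688 of the scramble mean (log2 fold change -0.54, SE 0.19). Scramble replicate 3 held the highest MUC5AC level, 0.59 above the other scramble replicates on the log2 scale, beside a median shift of 0.49 for genes of like GC content (60.3% GC). Without it the ratio was 0.804 and the log2 fold change -0.32 (SE 0.05), and the log2 fold change ranged from -0.68 to -0.32 over the settings tried. MUC5AC was called lower without that library, where 49.5% of all genes were called. With all 6 libraries MUC5AC was called lower only when offsets for GC content and length were used (-0.65). In that setting 4858 of 14231 genes were called.

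The share of MUC5AC in the sum of the pair varied less within a group than either level did. It was 58.7%, 57.6% and 60.6% in the 3 scramble libraries and 19.9%, 19% and 19.4% in the 3 knockdown libraries, with means of 59.0% ± 1.49 and 19.5% ± 0.466 (SD, n = 3 each). Within each group the share spanned a few percent while the sum of the pair ran from 469 to 719 CPM in the scramble libraries and from 1137 to 1232 CPM in the knockdown libraries. MUC5AC led the pair in every scramble library and MUC5B in every knockdown library, in CPM, and the same order held in FPKM (19.3 ± 3.97 for MUC5AC and 13.0 ± 2.01 for MUC5B in the scramble group, 12.8 ± 0.823 and 51.8 ± 2.11 in the knockdown group, SD, n = 3 each).

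**Figure D2:**
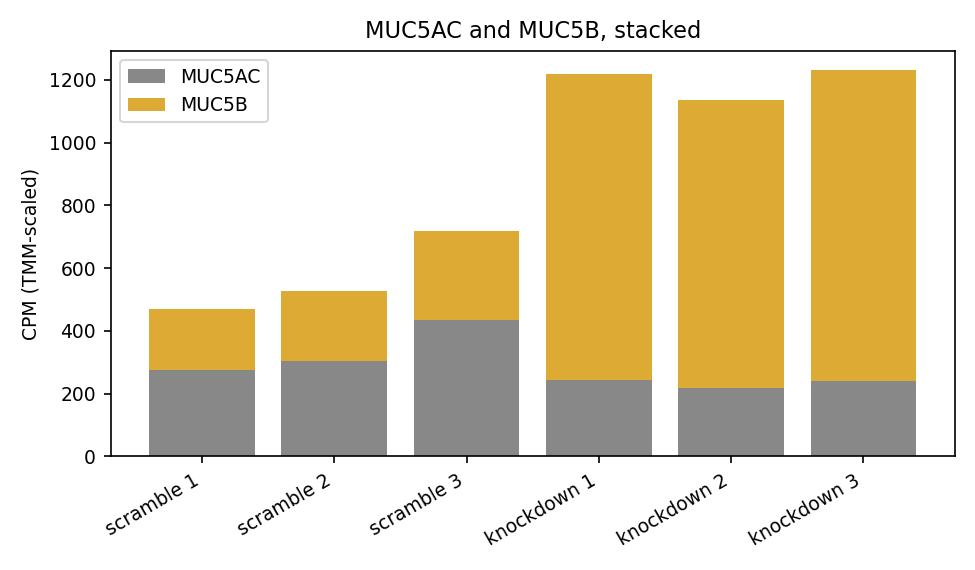
Levels of MUC5AC and MUC5B in CPM, as stacked bars with 1 bar for each library. MUC5AC is 57.6% to 60.6% of the pair in the scramble libraries and 19% to 19.9% in the knockdown libraries.

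Because the genes share sequence, the estimated counts of the pair were looked at directly. The MUC5AC and MUC5B expected counts were fractional in all 6 libraries, while their sum was a whole number in all 6 (5051, 5678 and 7425 counts in the 3 scramble libraries, and 12200, 11388 and 12399 in the 3 knockdown libraries, to within 0.015), and the 8 other mucins had whole counts in all 6 libraries. RSEM thus divided some reads between these genes. In GENCODE transcripts matched by RefSeq accession, 66 of 17399 stretches of 50 bases in MUC5AC (0.379%) and 66 of 17862 in MUC5B (0.369%) occur in the other gene, and 2 identical runs have at least 50 bases. The longest, of 91 bases, is printed in lower case, since no part of it is singled out. A read that lies wholly within it matches both genes equally.
Coding, exon 25 of 49 in both, plus strand, chr11:1178585-1178675 in MUC5AC and chr11:1237066-1237156 in MUC5B (GRCh38): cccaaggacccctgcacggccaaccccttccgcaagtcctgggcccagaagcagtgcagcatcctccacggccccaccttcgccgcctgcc
MUC20 shares 72.8% of its stretches of 50 bases with another gene, chiefly its pseudogene MUC20P1, yet its counts were whole in all 6 libraries. Whether the reference behind the deposited counts held MUC20P1 was not checked, so the MUC20 counts are uncertain. MUC1, MUC3A, MUC4, MUC12, MUC13 and MUC16 had 0 stretches in common with another gene in these transcripts. Whether they include MUC3B, the close relative of MUC3A, was not checked. MUC3B had no matching symbol in the gene reference used for the lists.

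The other 5 mucins were at low levels. MUC20, a membrane mucin first described in kidney, measured 2.04, 2.04 and 0.775 CPM in the 3 scramble libraries, against 3.20, 3.40 and 1.99 CPM in the 3 knockdown libraries, so the groups overlapped (log2 fold change 0.81, SE 0.38, and 0.48 without scramble replicate 3). Scramble replicate 3 was the lowest library for MUC20, 1.00 below the other scramble replicates on the log2 scale, while genes of like GC content (60.8% GC) lay 0.49 above them at the median. The membrane mucins MUC3A and MUC12, which lie beside each other on chromosome 7 and are best known from the intestine, overlapped too. MUC3A ran from 4.64 to 6.68 CPM in the scramble libraries and from 4.49 to 5 CPM in the knockdown libraries (log2 fold change -0.17, SE 0.21, and 0.01 without scramble replicate 3). MUC12 ran from 2.60 to 3.49 CPM and from 2.30 to 2.98 CPM (-0.28, SE 0.24, and -0.20 without that library). MUC2, the gel-forming mucin of the intestine, was represented by 4, 5 and 5 counts in the scramble libraries and 7, 12 and 11 counts in the knockdown libraries, with a mean of 0.440 against 0.997 CPM, and was too low for the fit with all 6 libraries. MUC4, a large membrane mucin, had 3, 2 and 1 counts against 7, 2 and 7 and was not fitted in either setting. The MUC2 counts did not overlap between the groups, those of MUC4 did, and both are too few for a fold change to be read from them.

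**Figure D3:**
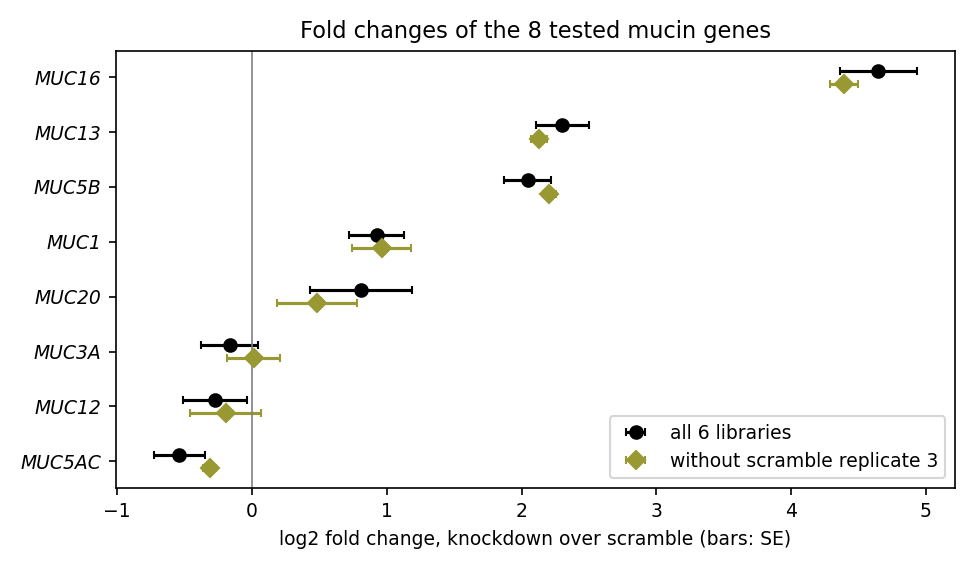
Log2 fold change of knockdown over scramble for the fitted mucins with all 6 libraries and without scramble replicate 3, with bars of 1 SE. MUC16, MUC13, MUC5B and MUC1 lie above 0 in both, and MUC5AC lies below.

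The whole group of mucins summed to 542, 597 and 769 CPM in the 3 scramble libraries, against 1835, 1673 and 1864 CPM in the 3 knockdown libraries. The means were 636 ± 119 and 1791 ± 103 CPM (SD, n = 3 each), and the knockdown sum was 2.82-fold the scramble sum, or 3.15-fold without scramble replicate 3. A CPM sum counts reads and so weighs long transcripts more. On the length-scaled FPKM scale the sum went from 48.0 to 136. Of the FPKM sum, MUC5AC and MUC5B together made up 59.3% to 77.1% in the scramble libraries and 46.8% to 48.4% in the knockdown libraries. MUC13 made up 16.9% to 31.9% and 40.5% to 43.9%, and MUC16 0.436% to 1.03% and 5.81% to 7.03%. In reads, the CPM share of MUC16 was 1.30% to 3.50% and 20.8% to 23.8%, larger than by FPKM for this very long transcript.

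In the scramble libraries the order by FPKM was MUC5AC (19.3 ± 3.97), MUC5B (13.0 ± 2.01), MUC13 (12.1 ± 3.17), MUC1 (1.75 ± 0.138), MUC20 (0.773), MUC3A (0.477), MUC16 (0.377), MUC12 (0.19), MUC4 (0.0467) and MUC2 (0.0267). In the knockdown libraries it was MUC13 (56.7 ± 1.36), MUC5B (51.8 ± 2.11), MUC5AC (12.8 ± 0.823), MUC16 (8.97 ± 1.18), MUC1 (3.15 ± 0.507), MUC20 (1.23), MUC3A (0.407), MUC12 (0.157), MUC4 (0.13) and MUC2 (0.06). MUC13 thus stood below MUC5AC in the scramble group and above it in the knockdown group. Against MUC5B, MUC13 was already higher in scramble replicates 1 (14.69 against 11.1 FPKM) and 2 (12.94 against 12.89). Only in scramble replicate 3 was it lower (8.53 against 15.11). Neighbours whose libraries overlapped were MUC5B and MUC13, MUC20 and MUC3A, MUC3A and MUC16, and MUC4 and MUC2 in the scramble group, and MUC12 and MUC4 and MUC4 and MUC2 in the knockdown group. The deposited transcript length, which follows the mix of isoforms, varied between libraries for MUC1 and MUC20 and was fixed for the other 8. For MUC1 it was 1731 ± 130 bases in the scramble and 1756 ± 62.9 bases in the knockdown libraries (exact permutation test, 2-sided, p = 0.9, adjusted p = 0.9), and for MUC20 2190 ± 87.7 and 2261 ± 136 bases (exact p = 0.6, adjusted p = 0.9), with 0.1 the smallest p that 3 against 3 libraries can give.

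**Figure D4:**
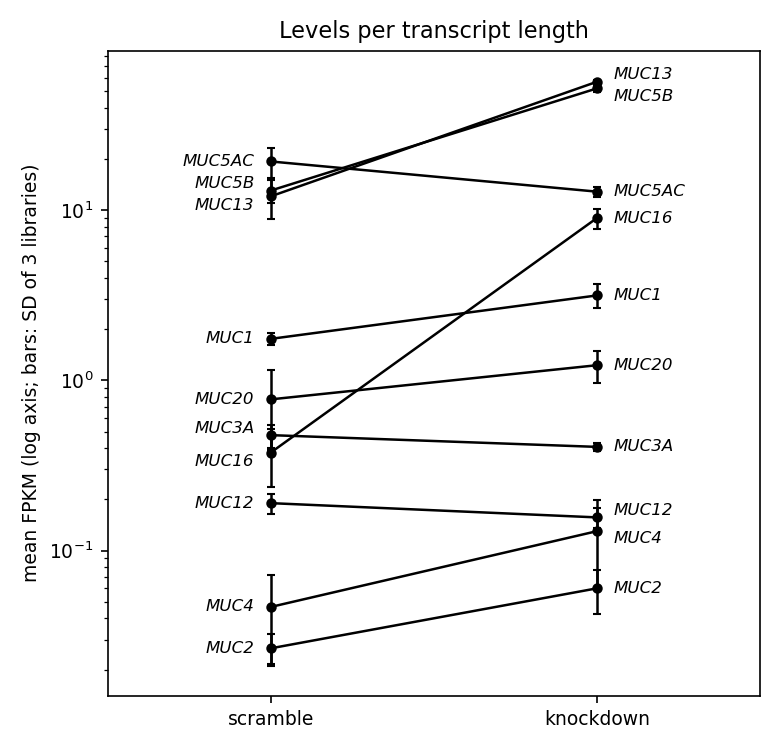
Mean FPKM of each mucin in the scramble and the knockdown libraries on a log axis, with bars of 1 SD over 3 libraries and a line joining the 2 means of each gene. MUC5AC leads in the scramble group at 19.3 FPKM and MUC13 in the knockdown group at 56.7 FPKM.

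Genes around the mucins were taken from lists of related genes, and these were tested with edgeR over all 14812 genes, where 11.5% were called. Enzymes that start and build O-linked chains changed in both directions, with 5 of 23 tested higher and 3 lower (median log2 fold change 0.09). GALNT2, which adds the first sugar to serine or threonine, rose from 151 ± 36.0 to 487 ± 7.38 CPM (log2 fold change 1.69, adjusted p = 0.00055 by edgeR), and GALNT12, of the same family, rose by 1.31 (adjusted p = 0.00099). The related GALNT10 fell from 279 ± 40.5 to 128 ± 1.73 CPM (-1.13, adjusted p = 0.0018 by edgeR), and GALNT16 fell by 1.84 on the log2 scale (adjusted p = 0.0093). GCNT3 (0.19), which makes core 2 and core 4 branches, and GALNT7 (0.03) did not pass with all 6 libraries, and without scramble replicate 3 they passed at 0.36 and -0.27 (adjusted p = 1.8e-06 and 5.7e-05). Leaving out knockdown replicate 2 or 3 ended the GALNT16 call (adjusted p = 0.0604 each). GALNT16 was also low, with means of 1.70 CPM in the scramble and 0.466 CPM in the knockdown libraries, so the size of its fall is uncertain.

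Of 8 tested genes of mucus granules and mucous cells, 1 rose and 2 fell (median log2 fold change 0.01). TFF1, a trefoil peptide secreted together with gel-forming mucins, rose from 0.409 ± 0.0651 to 2.93 ± 0.510 CPM (2.81, adjusted p = 0.00073 by edgeR). Its scramble libraries held 0.37, 0.37 and 0.48 CPM, where 3 counts are 0.278 to 0.3 CPM, so the size of this rise is uncertain. FCGBP, a mucus protein that binds to gel-forming mucins, fell from 80.6 ± 15.9 to 32.8 ± 2.18 CPM (-1.30, adjusted p = 0.0021), and AGR2, the disulphide isomerase needed to fold gel-forming mucins, fell from 145 ± 8.77 to 83.8 ± 2.00 CPM (-0.79, adjusted p = 0.007). LYZ (0.01) and SLC12A2 (-0.46) did not pass with all 6 libraries, and SLC12A2 did without scramble replicate 3 (-0.79, adjusted p = 1.2e-12). Leaving out any 1 knockdown library ended the AGR2 call (adjusted p from 0.0619 to 0.0737).

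Of 15 transcription factors tied to mucin genes, 3 rose and 1 fell (median -0.09). EHF, an epithelial ETS factor, rose from 1.31 ± 0.5 to 5.42 ± 0.0659 CPM (2.03, adjusted p = 0.0019 by edgeR), KLF5 from 73.3 ± 19.7 to 168 ± 11.2 CPM (1.19, adjusted p = 0.0069) and KLF4 by 0.84 (adjusted p = 0.012). FOXA2, a forkhead factor that restrains goblet cell mucin production, fell from 50.9 ± 11.7 to 23.1 ± 0.0932 CPM (-1.14, adjusted p = 0.0051). STAT6 (-0.09) and ELF3 (-0.26) did not pass with all 6 libraries, and without scramble replicate 3 STAT6 was at 0.12 (adjusted p = 0.0495). Leaving out scramble replicate 2 (adjusted p = 0.0548) or any 1 knockdown library (0.0599 to 0.0914) ended the KLF4 call.

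Of 14 genes of granule exocytosis, 3 rose and 2 fell (median -0.11). VAMP8, a granule SNARE of secretory cells, rose from 1.80 ± 0.460 to 9.54 ± 1.55 CPM (2.40, adjusted p = 0.00038 by edgeR). UNC13D, a priming factor for secretory granules, rose from 26.5 ± 6.83 to 102 ± 2.83 CPM (1.95, adjusted p = 0.00038), and STX11 by 1.59 (adjusted p = 0.0052). MARCKS, which releases granules from the actin cortex, fell from 154 ± 6.40 to 86.7 ± 10.1 CPM (-0.82, adjusted p = 0.0082), which did not pass when knockdown replicate 1 (adjusted p = 0.071) or 3 (0.0847) was left out. RAB27B (0.52) did not pass with all 6 libraries and did without scramble replicate 3 (0.19, adjusted p = 0.0161).

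Of 18 partners of membrane mucins and enzymes that shed them, 3 rose and 2 fell (median 0.06). MSLN, mesothelin, which binds MUC16, measured 0.56, 0.56 and 0.77 CPM in the 3 scramble libraries, against 6.20, 7.79 and 7.05 CPM in the 3 knockdown libraries, a rise of 3.46 on the log2 scale (adjusted p = 6.7e-05 by edgeR). MSLN was higher in all 3 knockdown libraries, as MUC16 was. The scramble levels of MSLN were low, where 3 counts are 0.278 to 0.3 CPM, so the size of its rise is uncertain. ERBB3, a receptor partner of membrane mucins, rose by 0.89 (adjusted p = 0.014), LGALS1 fell by 0.75 (adjusted p = 0.03) and SRC fell by 0.67 (adjusted p = 0.038). The ERBB3 call was lost without any 1 library other than scramble replicate 3 (adjusted p from 0.0575 to 0.0847), and the LGALS1 and SRC calls without any 1 knockdown library (0.127 to 0.156 and 0.149 to 0.168). Among mucin-like genes outside the 10, MCAM, CD164, PODXL and the others, 4 could be tested and 0 were called by edgeR, DESeq2 or limma-voom, with 1 of them lower at an unadjusted p under 0.05 (edgeR). Without scramble replicate 3, where 49.5% of all genes were called, the lists had 11, 1, 8, 4 and 9 genes higher and 5, 3, 1, 5 and 6 lower, in the order O-linked chains, granules, transcription factors, exocytosis and partners.

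**Figure D5:**
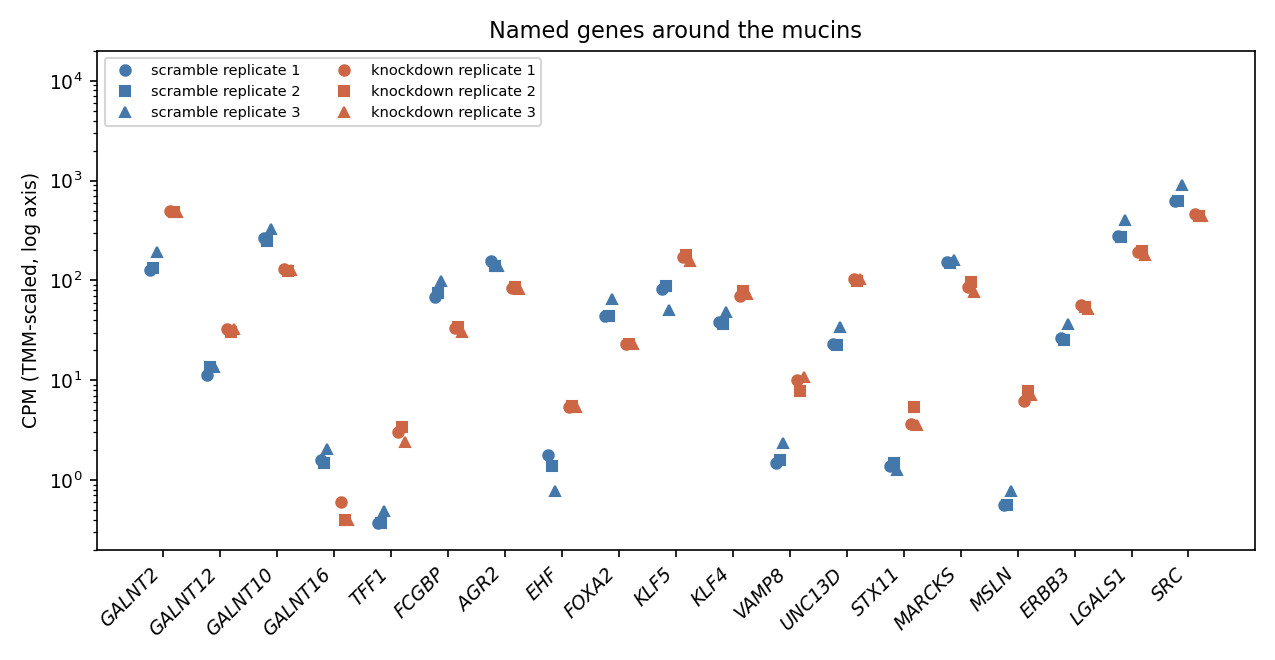
Levels of the named list genes in CPM on a log10 axis, with 1 point for each library, for the called genes of the lists around the mucins. GALNT2, TFF1, EHF, VAMP8 and MSLN have all knockdown libraries above all scramble libraries, and FCGBP, FOXA2 and MARCKS below.

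Of 36 genes flanking the mucins, 3 on each side of a mucin, 1 rose and 2 fell (median -0.15). TFRC, the transferrin receptor near MUC4 and MUC20, rose by 1.59 (adjusted p = 0.0136 by edgeR), and BRSK2, near the mucin genes of chromosome 11, fell by 0.83 on the log2 scale (adjusted p = 0.0264). TFRC did not pass when knockdown replicate 2 (adjusted p = 0.0519) or 3 (0.0515) was left out, and BRSK2 when any 1 knockdown library was (0.115 to 0.125). None of the called flanking genes lies beside MUC1, MUC13 or MUC16.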

How the data were processed

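The members and the gene lists were chosen with earlier results of these data known. Expected counts, FPKM and transcript length per gene are the authors' deposited RSEM output, per the file headers: an expected count is an estimated number of reads, FPKM is scaled for length and depth, and length is the deposited mean transcript length in bases. BWA, Bowtie2, RSEM and build hg19 are named in the submitters' processing notes without versions. Files list no gene at 0, so an unlisted gene was set to 0 counts. Of 20824 gene IDs, 20727 matched a symbol and 97 did not (0.147% of counts).

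Expected counts were rounded and fitted with edgeR 4.0.16 in R 4.3.3 (filterByExpr at a count of 10 and a total of 15, TMM, glmQLFit and glmQLFTest, no covariates), and calls are at a Benjamini-Hochberg adjusted p under 0.05. The SE of a log2 fold change comes from its F statistic. Fold changes were fitted over all genes, and the script was checked on simulated data. Named from each list are at most 4 called genes, by smallest p-value, and 2 uncalled genes, besides the mucins. Values of some genes under this rule are left out and not reported here. Intervals from 3 libraries are limited by their number. Counts carry counting error, and those of MUC5AC, MUC5B and MUC20 also carry the uncertainty that comes from shared sequence. Alternatives were RLE and upper-quartile scaling, other filters, a replicate block, DESeq2 1.42.0, limma-voom (limma 3.58.1), a minimum log2 fold change of 1, each library left out, and offsets for GC content and length. GC content and promoters come from GRCh38 annotation, and no coordinates of hg19 are printed.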

Additional observations from a re-analysis of the deposited data

How the results depend on the processing

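Across the alternatives MUC16, MUC13 and MUC5B stayed called, with log2 fold changes of 4.32 to 4.86, 2.13 to 2.44 and 1.92 to 2.21; MUC3A ranged from -0.28 to 0.01 and was not called. Over all genes 1708 were called, 910 with a minimum log2 fold change of 1 and 4858 with GC content and length offsets, and RLE, upper-quartile scaling, DESeq2 and limma-voom gave 1763, 1728, 1889 and 1659. With each library left out the counts ran from 729 to 7439 for all genes, 3 to 5 for the mucins, 0 to 1 for other mucin genes, 3 to 16 for O-linked chain enzymes, 2 to 4 for granule genes, 3 to 9 for transcription factors, 3 to 9 for exocytosis, 1 to 15 for partners and 1 to 18 for flanking genes. The order of mucins by FPKM kept 43 to 45 of 45 pairs in the scramble group and 44 to 45 in the knockdown group; the transcript length difference ran from -49.4 to 72.3 bases for MUC1, reversed without scramble replicate 1 (-49.4) and knockdown replicate 2 (-9.78), and from 25.4 to 149 for MUC20. With the offsets 4858 of 14231 genes were called over all genes. In that setting 2 of 4 other mucin genes, 9 of 14 exocytosis genes, 8 of 17 partners and 11 of 36 flanking genes were called. With the minimum fold change 910 of 14812 genes were called over all genes, and 3 of 14 exocytosis genes and 1 of 18 partners. Reversed in sign were GALNT7 (from -0.27 to 0.22 with each library left out, -0.27 without scramble replicate 3, -0.13 with the offsets), LYZ (from -0.14 to 0.11 with each library left out, -0.02 with upper-quartile scaling, -0.14 without scramble replicate 3, -0.03 and -0.01 without knockdown replicates 2 and 3, -0.16 with the offsets), STAT6 (from -0.21 to 0.12 with each left out, 0.12 without scramble replicate 3) and ADAM9 (0.0396 with the replicate block, from -0.39 to 0.13 with each left out, 0.13 and 0.10 without scramble replicates 1 and 2, 0.0444 by limma-voom); the cause was not tested. Same-numbered libraries did not deviate together (correlations -0.024, -0.018 and -0.023), and the replicate block gave 1654 calls. A fit with effective length was not run. Spread among replicates, as a coefficient of variation, was 18.9% and fell to 2.97% once scramble replicate 3 was dropped, and MUC2 and MUC4 rest on few counts.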
